A study of Mus musculus with 81 samples.

Results

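The regions described here were the old long terminal repeat (LTR) elements whose names begin with LTR and a number, MLT2, MER and a number, or MamGyp. Members were chosen by name alone, as the part of each locus identifier before the first colon, and they made up 54401 of the 970384 LTR-class loci in the tables, or 5.61%. They fell into 4 name groups, with 24636 LTR loci of 108 species (a species is here all copies that share 1 repeat name), 10566 MLT2 loci of 10 species, 18147 MER loci of 72 species and 1052 MamGyp loci of 9 species. RNA was measured in 62 libraries of fluorescence-sorted cells from testes of fetal mice at E18.5. All mice were of the OG2 line, backcrossed to C57BL/6, in which the Pou5f1 promoter and distal enhancer drive EGFP in prenatal germ cells. P4 and P5 were EGFP-positive germline fractions separated by side scatter, and P6 was the EGFP-negative somatic fraction, a mixture of every other testis cell type. The F0 dams drank water with 50 nM tributyltin (TBT), an organotin obesogen, or with the dimethyl sulfoxide (DMSO) vehicle alone, so F1 fetuses were exposed in utero and F3 fetuses descended from them by breeding without further exposure. In F1 there were 5 DMSO and 7 TBT libraries of P4, 4 and 7 of P5, and 5 and 7 of P6, and in F3 there were 4 DMSO and 5 TBT libraries of each population. The F1 germline libraries carry numbers in 2 parts, and the 7 TBT libraries of each population share only 2 leading numbers and the DMSO libraries only 3, which the labels do not explain, so libraries of a group may not be independent. The DNA of P6 cells was also profiled by capture with a methyl-CpG binding domain (MBD), in 19 further libraries.

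An LTR retrotransposon copies itself through RNA, and its 2 terminal repeats carry the promoter and polyadenylation signals of the element. Most copies of old families are solitary repeats, left after recombination between the 2 ends, and mutation has worn them down since insertion. MLT2 repeats are the LTRs of ERVL-class elements, MER repeats are a mixed set of medium-abundance repeats of ERV1 and ERVL class, and MamGyp elements belong to the Gypsy class, which is extinct as a mobile element in mammals. Some genes of mammals, among them those of the PNMA family, descend from the gag gene of Gypsy-class elements. DNA methylation, histone marks and piRNAs hold young LTR elements in check in fetal male germ cells, whereas old copies are mostly inert and are often transcribed only as part of a longer transcript.

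The annotated classes followed the names. All 10566 MLT2 loci were annotated as ERVL and all 1052 MamGyp loci as Gypsy, while the MER loci divided into 9600 ERV1 and 8547 ERVL copies. The LTR group was the most mixed, with 16255 ERVL, 5129 ERV1, 805 Gypsy, 819 doubtful Gypsy and 546 ERVK copies. The name rule also took in 2 species whose names end in RN, LTR72_RN (992 loci) and LTR10_RN (546 loci, the ERVK copies), so the label "ancient" was not checked for them by name. The files hold no insertion age, so age was looked at only through length and base composition on GRCm38. The median length was 171 bases for LTR, 198 for MLT2, 196 for MER and 144 for MamGyp copies, against 357 bases for the intracisternal A particle (IAP) loci, a young mouse family. Members held 0.658 CpG per 100 bases, close to the 0.673 of the MLT1 loci, another old family, and below the 2.34 of IAP loci. No CpG was left in 38.2% of member loci, compared with 4.15% of IAP loci. MamGyp-int, the internal part of the Gypsy elements, was an exception among its 28 copies, with 1.5 CpG per 100 bases.

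The following sequences show what such copies look like, and they are the loci that the results below return to. All are read from the plus strand of GRCm38 in lower case, with each CpG in capitals, since CpG loss marks age and CpG is what the MBD assay captures. The first 4 are the copies with the highest mean level outside exons in each name group, in introns of Camta1, Rab10, Fkbp6 and Cpne5.
LTR41, chr4:151809307-151809515: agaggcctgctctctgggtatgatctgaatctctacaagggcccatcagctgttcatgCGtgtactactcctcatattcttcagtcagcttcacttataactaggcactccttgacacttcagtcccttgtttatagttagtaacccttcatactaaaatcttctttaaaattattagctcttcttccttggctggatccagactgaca
MLT2B1, chr12:3273389-3273688, the first 300 bases of the copy: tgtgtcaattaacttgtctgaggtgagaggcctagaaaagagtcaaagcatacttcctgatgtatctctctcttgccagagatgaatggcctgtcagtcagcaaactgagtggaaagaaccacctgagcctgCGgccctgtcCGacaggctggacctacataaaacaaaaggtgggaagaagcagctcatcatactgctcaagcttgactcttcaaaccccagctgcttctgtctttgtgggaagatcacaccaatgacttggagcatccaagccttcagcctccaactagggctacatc
MER21-int, chr5:135329167-135329291: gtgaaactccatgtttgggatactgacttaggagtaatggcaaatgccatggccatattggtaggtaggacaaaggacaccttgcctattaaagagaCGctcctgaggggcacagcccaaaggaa
MamGypLTR1d, chr17:29201001-29201058: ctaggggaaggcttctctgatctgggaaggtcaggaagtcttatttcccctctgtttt

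The next sequences are copies named by the comparisons. LTR16A lies outside GENCODE genes and had a higher level in P5 than in P4 in both generations. The MamGypLTR1b copy in an intron of Heg1 was the only member that passed the limma test between TBT and DMSO. MLT2B1 on chromosome 1 was the member with the lowest p between exposures in F3 P4 among those whose groups did not overlap, and it missed the threshold of that test.
LTR16A, chr1:86436622-86436921, the first 300 bases of the copy: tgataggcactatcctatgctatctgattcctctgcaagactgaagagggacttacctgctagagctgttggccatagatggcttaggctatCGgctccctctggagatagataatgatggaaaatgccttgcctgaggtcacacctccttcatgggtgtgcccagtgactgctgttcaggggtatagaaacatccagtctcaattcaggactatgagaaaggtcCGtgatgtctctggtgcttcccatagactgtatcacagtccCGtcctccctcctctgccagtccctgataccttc
MamGypLTR1b, chr16:33748733-33748808: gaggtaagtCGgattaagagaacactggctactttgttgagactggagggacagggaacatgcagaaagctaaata
MLT2B1, chr1:149549143-149549331: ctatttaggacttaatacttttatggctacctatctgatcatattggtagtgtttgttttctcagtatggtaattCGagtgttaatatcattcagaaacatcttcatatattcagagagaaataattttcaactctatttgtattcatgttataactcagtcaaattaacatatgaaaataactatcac

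The last sequences belong to copies outside genes with high germline levels, chosen after their values were seen. LTR33A had no read in any P6 library, and MER34A was higher in P5 than in P4 in F1.
LTR33A, chr5:119986370-119986555: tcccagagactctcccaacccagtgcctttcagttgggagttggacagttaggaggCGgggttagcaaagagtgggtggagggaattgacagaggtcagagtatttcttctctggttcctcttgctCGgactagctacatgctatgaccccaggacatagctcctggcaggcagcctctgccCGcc
MER34A, chr19:29671957-29672256, the first 300 bases of the copy: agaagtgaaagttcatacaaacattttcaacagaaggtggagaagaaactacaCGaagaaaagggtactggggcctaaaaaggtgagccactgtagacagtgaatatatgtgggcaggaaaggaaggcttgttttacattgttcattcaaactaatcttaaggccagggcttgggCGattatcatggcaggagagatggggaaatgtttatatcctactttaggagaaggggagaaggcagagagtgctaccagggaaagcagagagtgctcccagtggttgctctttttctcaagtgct
The 300 bases of LTR16A held 3 CpG, LTR33A held 3 in 186 bases, and MamGypLTR1d held none in 58 bases.

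Read numbers and loci detected varied most in the F3 germline data. Reads on all LTR-class loci ranged from 3890178 to 6304053 in F1 P4, 3835481 to 5761940 in F1 P5, 2824806 to 3830400 in F1 P6 and 4104928 to 7760769 in F3 P6, but from 833449 to 7216887 in F3 P4 and from 246520 to 8161548 in F3 P5. F3 P4 TBT libraries 5 and 9 had reads on 1586 and 2486 member loci, and F3 P5 DMSO library 2 and TBT library 5 on 2877 and 801. F3 P4 DMSO libraries 1 and 3, with 4896693 and 4897690 reads, had reads on 5482 and 5119 member loci, and the F1 P4 libraries on 8672 to 10215. The cell type of each population was checked through LTR-class loci inside marker genes, since no gene-level table was used. The summed level of 10 of the 12 germ cell genes ranged from 6920 to 14689 CPM (counts relative to library size, as deposited) in the F1 germline libraries and from 13.6 to 34.6 in F1 P6, while 6 of the 8 Sertoli cell genes summed to between 1375 and 1845 CPM in F1 P6 and at most 206 in F1 germline libraries. In F3 the germ cell sum fell to 1235 CPM in 1 P4 library and 335 CPM in 1 P5 library, and 1 F3 P6 library reached 171 CPM.

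Each name group held a small share of the LTR-class signal, and the shares spread more in the F3 germline than in F1. The LTR group totalled 19110 ± 693 CPM in F1 P4 (SD, n = 12), 17581 ± 794 in F1 P5 (n = 11) and 22539 ± 578 in F1 P6 (n = 12), which were 1.81%, 1.85% and 2.25% of the signal on all LTR-class loci. MLT2 elements were also highest in P6, with 0.602%, 0.634% and 0.827% in F1 P4, P5 and P6 and 0.672%, 0.657% and 0.855% in F3. MER elements were not, with 2.65% in F1 P4, 2.54% in P5 and 2.50% in P6, and 2.74%, 2.42% and 2.51% in F3. MamGyp elements were the rarest, at 770 ± 37.6 CPM in F1 P4, 708 ± 31.2 in P5 and 816 ± 30.4 in P6, and in F3 at 676 ± 283 CPM in P4, 649 ± 266 in P5 and 772 ± 11.9 in P6 (n = 9 each). In F3 P4 the MamGyp share ran from 0.0247% to 0.0859% and the MLT2 share from 0.564% to 0.936%. The MLT1 elements, given for scale, held 7.38% in F1 P4 and 8.61% in F1 P6, and IAP elements 0.962% and 1.02%. In these mixed-cell samples, fewer cells of a type and less RNA per cell cannot be told apart. P6 was normalized in tables of its own, so P6 and germline values are set side by side and were not tested against each other.

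**Figure D1:**
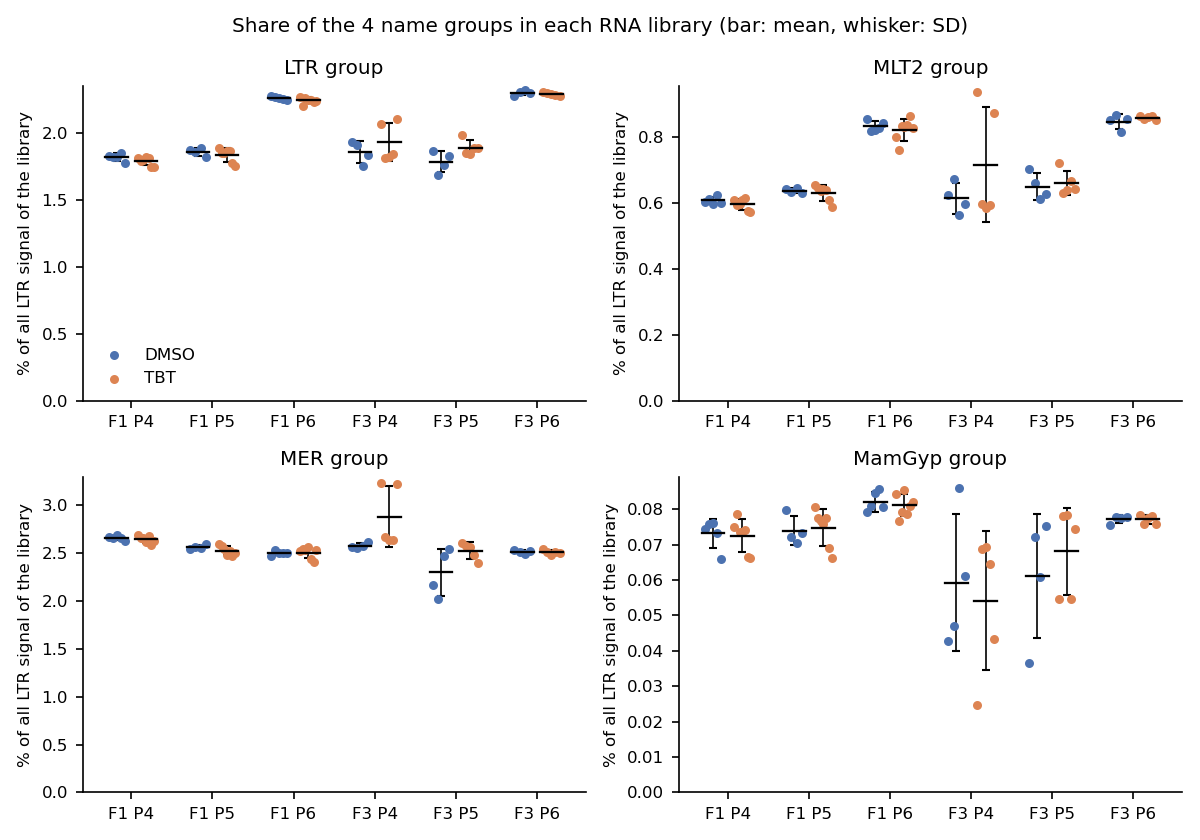
Share of the signal on all LTR-class loci held by each of the 4 name groups (y axes, percent), with 1 point per library, grouped by generation and population, DMSO in blue and TBT in orange, a bar at the mean and whiskers of 1 SD. LTR and MLT2 shares sat higher in P6 than in the F1 germline, TBT and DMSO points overlapped in 23 of the 24 cases, all but MER in F3 P4, and the F3 P4 and P5 points were the most scattered.

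Member signal came mostly from inside genes. Of the member loci, 62.2% lay outside GENCODE genes, 35.2% in introns and 2.60% in exons, whereas of the member reads 3.24% lay outside genes, 84.2% in introns and 12.6% in exons. MamGyp was the exception, with 53.3% of its reads in exons. A few loci carried the signal, since 734 of the 34360 member loci with any read held 50% of all member reads, and 8 MamGyp loci held 50% of that group. The share outside genes was low in F1 P4 (lowest 2.25%, median 2.58%, highest 2.94%) and higher in F1 P5 (3.31%, 4.56% and 5.91%), with no overlap between the libraries of P4 and P5. In F1 P6 it was 0.760% at the lowest and 1.05% at the median, but TBT libraries 7 and 8 stood at 5.06% and 5.05%, with all others at most 1.42%. Their germ cell marker sums were 24.98 and 23.8 CPM, against 13.6 to 34.6 in the other 10 F1 P6 libraries, and the same 2 libraries had reads on 3102 and 3251 member loci outside genes, against a median of 471.5 over F1 P6. In F3 P5 the share ran from 4.88% through 8.47% to 21.5%, highest in the library with the fewest reads, and in F3 P6 from 0.818% to 0.965%. These patterns were not particular to members. Over all LTR-class loci the share outside genes was 1.83% to 2.51% in F1 P4 and 3.84% to 7.34% in F1 P5. It was 6.79% and 6.95% in F1 P6 TBT libraries 7 and 8.

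**Figure D2:**
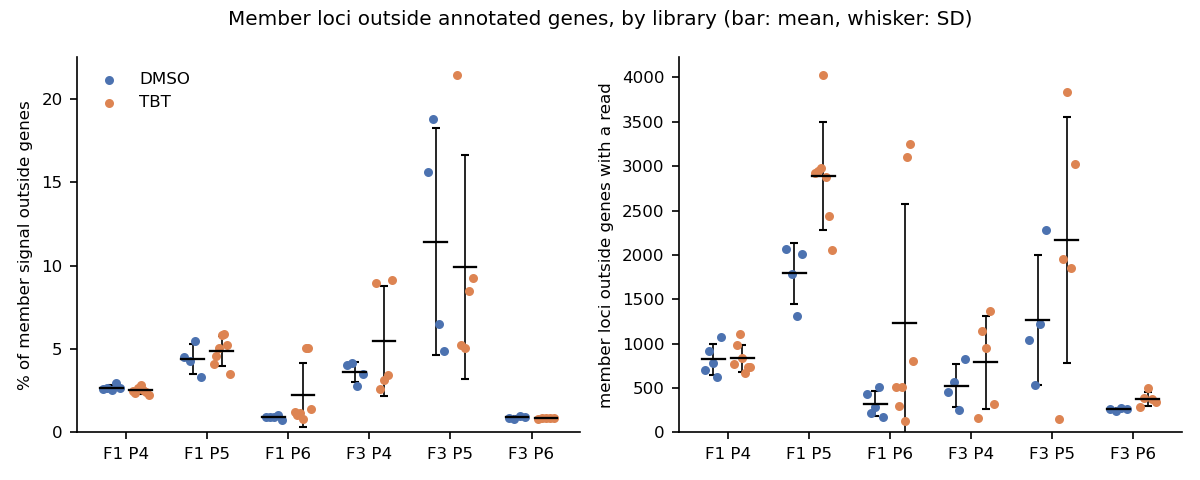
Percent of member signal that lay outside annotated genes (left) and number of member loci outside genes with a read (right), with 1 point per library, DMSO in blue and TBT in orange, a bar at the mean and whiskers of 1 SD. In the left panel F1 P5 libraries all sat above F1 P4 libraries, and TBT libraries 7 and 8 of F1 P6 and the F3 P5 libraries above 15% stood apart from their groups.

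Within introns, neighbouring copies did not give separate measurements. Among 5429 intronic member loci with at least 310 reads over all libraries, 4725 had another LTR-class locus in the same intron, at a median distance of 302 bases. For 4324 of these (91.5%) the reads summed over all libraries differed by at most 5%, and 727 (15.4%) had identical values in every library. Against the nearest locus in another intron of the same gene the agreement within 5% was 28.4% (1477 of 5209), and against neighbours outside genes it was 5.63% (8 of 142). The intronic values therefore have to be read as values shared along an intron rather than of 1 repeat, and counts of such loci are counts of correlated values. Whether 1 read was counted at several loci of an intron was not tested, so reads summed over loci may hold a read more than once. The MER21-int copy in Fkbp6 had 15 LTR-class loci within 10000 bases, and all 15 were within 5% of its reads.

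Among species, MER21C and MER21B, both ERVL-class, had the highest totals, with means of 4450 and 4288 CPM in F1 P4, 3967 and 3545 in F1 P5 and 4263 and 3797 in F1 P6. MER68 came next in its group, at 2133, 1857 and 1857 CPM. In the LTR group LTR48 averaged 1187, 991 and 895 CPM in F1 P4, P5 and P6, whereas LTR33 (879, 831 and 1315) and LTR67B (609, 567 and 1079) were higher in P6. MLT2D (879, 839 and 1511 CPM) and MLT2B2 (1017, 928 and 1429) were also higher in P6 than in the germline, and MLT2B4 differed less (902, 922 and 1095). In the MamGyp group, MamGyp-int stood at 309, 237 and 237 CPM, MamGypLTR3 at 161, 126 and 52.8, and MamGypLTR1b at 47.4, 57.9 and 146. The F3 means kept these orders in P6 and germline for LTR33, LTR67B, MLT2D and MamGypLTR1b, with 1328, 1123, 1614 and 138 CPM in F3 P6. MLT2B2 did not keep its order in F3, with 1908 CPM in P4, 1354 in P5 and 1419 in P6. Its highest copy lies in an exon of Cox6c, a subunit of cytochrome c oxidase (chr15:35936557-35936956), and that copy averaged 309 CPM in F1 P4 and 1029 in F3 P4.

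MamGyp-int was carried by genes that descend from Gypsy elements. Of its 28 copies, 20 had reads and 11 lay in exons, and 4 exonic copies in Moap1, Pnma2, Zcchc12 and Pnma5 held 89.5% of the species' reads and 29.3% of all MamGyp reads. These 4 copies had 1.69 CpG per 100 bases, against 0.726 in the other MamGyp copies. Pnma2 and Pnma5 are PNMA family genes with a gag-derived protein, Zcchc12 is a zinc-finger relative of them, and Moap1 encodes a gag-derived modulator of apoptosis that binds BAX.

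The 4 copies differed in where they were expressed. The copy in Moap1 (chr12:102742271-102743291), where Gm20604 and Gm28051 overlap in the annotation, was the somatic one, at 25.8 to 67.4 CPM in F1 P4 (median 49.8), 33.1 to 68.9 in F1 P5 (50.8) and 186 to 232 in F1 P6 (216). The copy in Pnma2 (chr14:66916122-66917143) was germline-high, at 68.9 to 149 CPM in F1 P4 (median 99.0), 43.4 to 88.3 in F1 P5 (67.2) and 3.15 to 9.72 in F1 P6 (6.37). Neither copy's P6 range overlapped its F1 germline ranges. The copy in Zcchc12 (chrX:36197559-36198103) averaged 74.0, 51.5 and 3.76 CPM in F1 P4, P5 and P6. The copy in Pnma5 (chrX:73036241-73037080) averaged 49.5 and 35.4 CPM in F1 P4 and P5 and was listed at 0 in 10 of the 12 F1 P6 libraries. F3 means were 180 CPM in P6 for Moap1 against 29.6 in P4 and 47.01 in P5, and 6.87, 2.29 and 0.286 CPM in P6 for Pnma2, Zcchc12 and Pnma5.

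**Figure D3:**
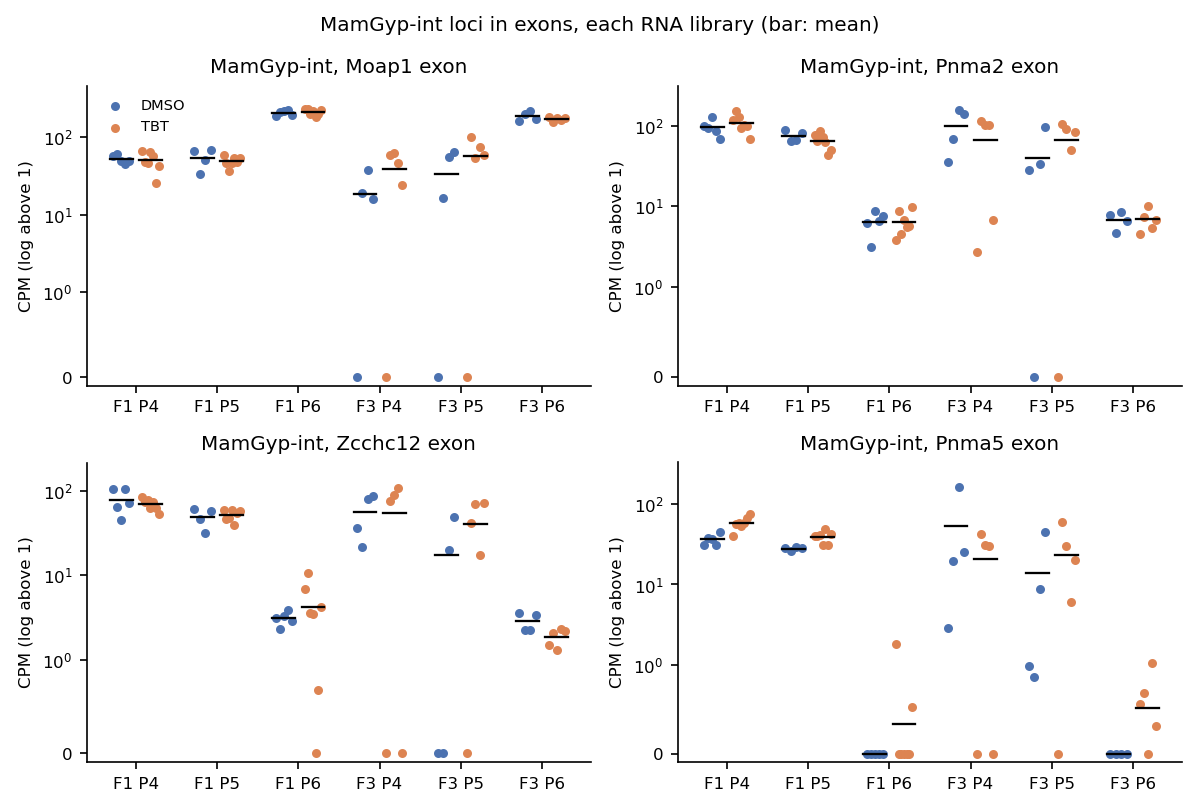
Level of the 4 MamGyp-int copies in exons of Moap1, Pnma2, Zcchc12 and Pnma5 (y axes, CPM, linear to 1 and logarithmic above), with 1 point per library by population and generation, DMSO in blue, TBT in orange and a bar at the mean. The Moap1 copy was highest in P6, where its F1 mean was 211 CPM, and the P6 points of the other 3 lay below all their F1 germline points.

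Germline and somatic levels of single copies were compared as a description, over loci with at least 310 reads and with a difference above 4-fold between the mean of the germline populations and that of P6. Outside genes 124 of 142 member loci (87.3%) were germline-high and 3 (2.11%) were P6-high, and 46 had no P6 read. Over all LTR-class loci outside genes the shares were 84.2% and 6.56% of 4393 loci. The read minimum was taken over 41 germline and 21 P6 libraries and could be met in the germline alone, as it was for those 46, so it favours germline-high loci and these shares do not show that copies outside genes prefer the germline. In introns the shares were 17.8% germline-high and 22.4% P6-high of 5429 members, against 17.9% and 21.5% over all LTR-class loci. Outside genes 49 of 56 LTR, 33 of 34 MLT2 and 41 of 51 MER copies were germline-high.

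LTR33A, 22990 bases from Gm38554, was the highest LTR-group copy outside genes. Its level was 21.8 to 40.1 CPM in F1 P4 (median 31.3), 14.6 to 30.9 in F1 P5 (23.7), 5.42 to 57.0 in F3 P4 (46.98) and 0 to 38.04 in F3 P5 (23.0), and all 21 P6 libraries were at 0. Every F1 germline library had it and no somatic library did. MLT2B3 on chromosome 13 (chr13:98647614-98648070), 10204 bases from Tmem174, averaged 21.3, 18.4 and 0.597 CPM in F1 P4, P5 and P6, and 15.7, 17.8 and 0.173 in F3. MER34A on chromosome 19, 23542 bases from Ermp1, was at 2.40 to 18.7 CPM in F1 P4 (median 7.18), 15.8 to 43.6 in F1 P5 (22.2), 1.36 to 33.7 in F3 P4 (20.5) and 24.0 to 119 in F3 P5 (74.6). It had reads in 2 of the 21 P6 libraries, at most 2.72 CPM. MamGypLTR1a on chromosome 8 (chr8:92544671-92544842) was the highest MamGyp copy outside genes, at means of 2.92 and 4.05 CPM in F1 P4 and P5, 7.63 and 11.8 in F3 P4 and P5, and 0.0557 in F1 P6.

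**Figure D4:**
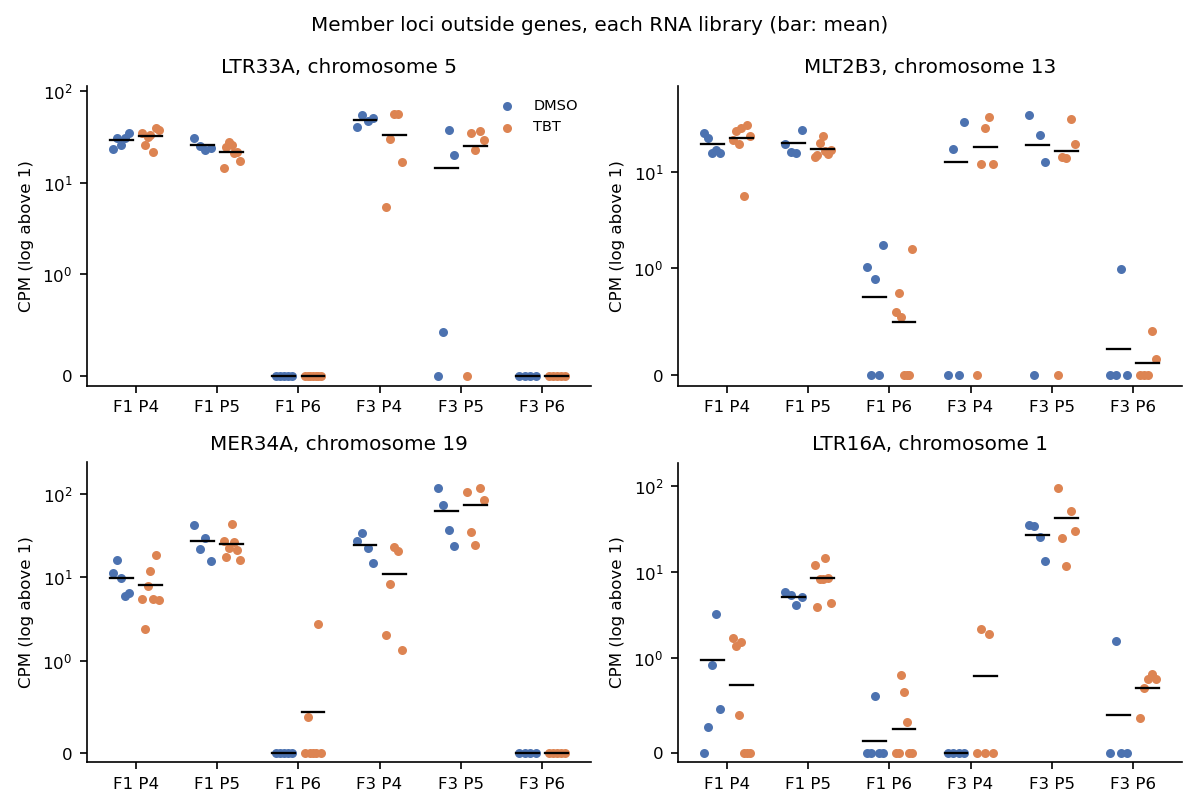
Level of LTR33A, MLT2B3, MER34A and LTR16A copies outside GENCODE genes (y axes, CPM, linear to 1 and logarithmic above), with 1 point per library by population and generation, DMSO in blue, TBT in orange and a bar at the mean. The LTR16A copy lies inside a RefSeq gene. No P6 point exceeded 2.72 CPM, F1 P5 points of LTR16A sat above all F1 P4 points, and F3 germline points were widely spread.

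Copies inside genes included both germline-high and P6-high ones, and the activity of the genes themselves was not measured here. The MER21-int copy in Fkbp6, a co-chaperone of the piRNA pathway and of male meiosis, ranged from 417 to 766 CPM in F1 P4 (median 547), 278 to 553 in F1 P5 (371) and 0 to 3.41 in F1 P6 (0.587). LTR87 in Stk31, a germ cell kinase gene, averaged 74.8, 53.3 and 0.138 CPM in F1 P4, P5 and P6, and MLT2B3 in Morc1, which silences transposons in male germ cells, 56.7, 37.8 and 0. MamGypLTR3 in an exon of Gm17737, which held 67.2% of its species' reads, averaged 140, 95.6 and 0.0887 CPM. On the somatic side, LTR40a in Gpc3, a cell-surface glypican, was at 0 to 5.08 CPM in F1 P4, 0.824 to 4.42 in F1 P5 and 145 to 233 in F1 P6, with no overlap. MLT2B3 in Ltbp4, a binder of latent TGF-beta, averaged 161 CPM in F1 P6 and 2.45 in F1 P4, MER70B in Ptn, the growth factor pleiotrophin, 98.9 and 1.11, and MamGypLTR2b in Casq2, a calcium-binding protein, 33.8 and 0.122. These copies, other than that in Fkbp6, were chosen after their values were seen. The LTR41 copy in Camta1, a transcription activator that binds calmodulin, averaged 200, 147 and 18.4 CPM in F1 P4, P5 and P6 and 714, 348 and 13.2 in F3. The MLT2B1 copy in Rab10, a small GTPase of vesicle transport, averaged 139, 93.8 and 49.8 in F1, and the MamGypLTR1d copy in Cpne5, a copine, 27.1, 17.7 and 3.21.

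The highest MER copy cannot be placed with certainty. MER34B-int in an exon of Ywhaz, which encodes the 14-3-3 zeta protein, at chr15:36771706-36771887 averaged 641, 389 and 483 CPM in F1 P4, P5 and P6 and 1192, 608 and 497 in F3. Its 182 bases are identical, in opposite orientation, to those of MER34B-int at chr3:92690993-92691174, near the pseudogene Gm4202. That copy had 207, 130 and 134 CPM in F1, and the ratio of chromosome 3 to chromosome 15 levels ranged from 0.226 to 0.707 over libraries, with a median of 0.313. A second pair of 122 identical bases at the same places had a ratio of 0.312 to 0.457. How reads that fit both copies were assigned was not tested, so the levels of both are uncertain. The 2 chromosome 3 copies lie outside genes and averaged 173 and 134 CPM in F1 P6. All MER copies outside genes held 324 to 398 CPM in the F1 P6 DMSO libraries. The P6 share outside genes and the MER ratio outside genes therefore carry the same uncertainty.

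Whether P5 differed from P4 was tested with limma across all loci of each generation, over 12 P4 and 11 P5 libraries in F1, with false discovery rates (FDR) over all loci tested. In F1, 2016 of 5523 member loci passed an FDR of 0.05 (36.5%), 903 higher and 1113 lower in P5, against 37.3% of all 101401 loci. The directions were also those of the background, at 16.3% of members and 17% of all loci higher, and 20.2% of members and 20.3% of all loci lower in P5. With every library set to the same total on LTR-class loci, 1637 member loci passed, 1073 higher and 564 lower, against 30.7% of all loci, and the median log2 difference over members moved from -0.12 to 0.03 and that over all loci from -0.11 to 0.03. On recovered reads, edgeR's quasi-likelihood test with TMM scaling called 1681, 982 higher and 699 lower (31.3% of all loci), and DESeq2 with its own size factors called 1621, 1030 higher and 591 lower (30.5% of all loci). With a filter of 20 reads' worth instead of 5, 1324 of 2245 passed, 295 higher and 1029 lower (57.5% of all loci), and with the DMSO libraries alone 643 of 5468, 346 higher and 297 lower (12.4% of all loci). Lower calls thus outnumbered higher ones under the deposited scaling with either filter and not with the same total per library or the DMSO libraries alone. The count tests changed the scaling and the test at once, so the 2 cannot be told apart there. Counts by group were 809 of 2242 for LTR, 283 of 780 for MLT2, 906 of 2440 for MER and 18 of 61 for MamGyp, and the ranges of P4 and P5 did not overlap at 179 called loci, 138 higher and 41 lower, which were 3.24% of the members tested against 2.86% of all loci tested. Median marker sums also differed between P4 and P5 in F1, with overlapping ranges for every list. The sums were lower in P5 over germ cell genes (11737 CPM in P4 and 7737 in P5) and 4 of the 5 stromal genes (21.4 and 18.1). They were higher in P5 over Sertoli cell genes (26.6 and 50.8) and 3 of the 6 Leydig cell genes (16.9 and 25.7). They were also higher over the 5 endothelial genes (76.3 and 104) and 3 of the 5 blood cell genes (9.22 and 15.9). Single genes of a list did not all follow its sum. Mean levels of the Leydig genes Cyp11a1 (34.11 and 18.49 CPM) and Cyp17a1 (8.81 and 7.14) fell from P4 to P5. That of Lhcgr rose (3.34 and 3.94). Of the endothelial genes, Flt1 averaged 47.1 CPM in P4, 51.5 in P5 and 3.31 in P6, and Cdh5 3.56, 4.19 and 87.2. The part of the marker sums in the differences between P5 and P4 was not tested.

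Copies outside genes leaned to P5. Of 158 member loci tested there in F1, 54 were higher and 11 lower in P5, against 42.8% higher and 3.15% lower of all 4565 loci outside genes, and the members' share higher was 34.2%. Their median log2 difference was 0.32, and that of all loci outside genes 0.80. P5 libraries had reads on a median of 2437 member loci outside genes and P4 libraries on 773.5, and its part in the difference was not tested. In introns 784 members were higher and 1010 lower of 4949, against 15.6% and 21.3% of all intronic loci, and in exons 65 and 92 of 416, against 19.7% and 18% of all exonic loci. MER34A on chromosome 19 was higher in P5 by 1.60 ± 0.23 on the log2 scale (SE, FDR 2.12e-06), and LTR33A lower, at -0.37 (FDR 0.0150).

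**Figure D5:**
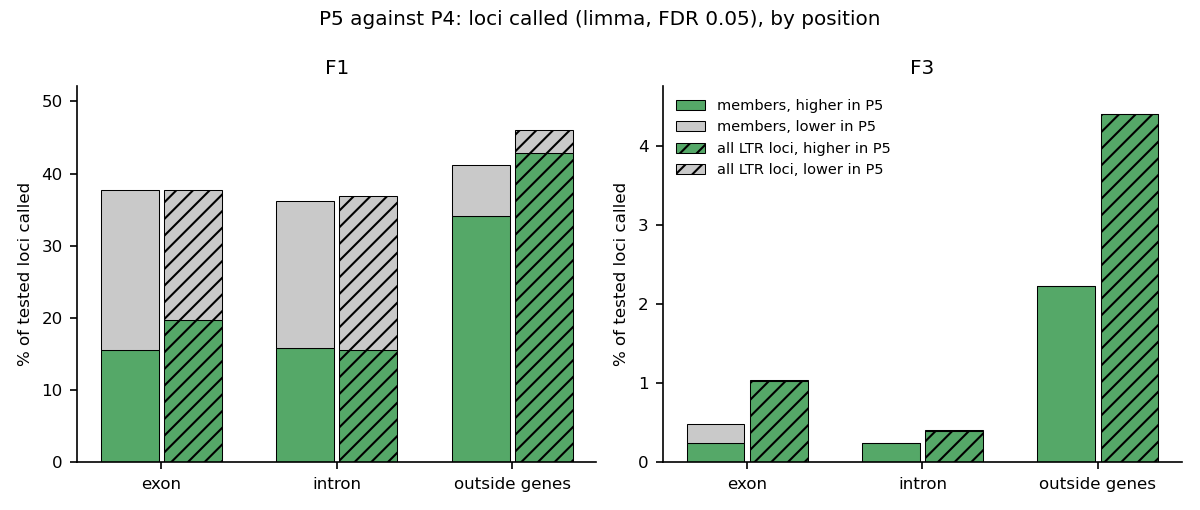
Percent of tested loci called between P5 and P4 (y axes, limma, FDR of 0.05, with separate scales for F1 and F3), for loci in exons, introns and outside genes, with plain bars for member loci, hatched bars for all LTR-class loci, and green and grey for higher and lower in P5. In F1 the higher calls outside genes made up 34.2% of members and 42.8% of all loci, and in F3 2.23% and 4.41%.

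The copies with the largest F1 differences that passed the test with no overlap were MLT2B3 and LTR37B, higher in P5, and MER34A and MER21B in Asap1, lower in P5. MLT2B3 in an intron of Galntl6 (chr8:57987396-57987938), a gene for a GalNAc transferase-like enzyme, was at 0 to 2.34 CPM in P4 (median 0.0995) and 2.54 to 11.6 in P5 (6.30), a log2 difference of 3.68 ± 0.42. LTR37B in an intron of Col24a1, a collagen gene (chr3:145406042-145406149), was at 0 to 1.71 CPM in P4 (median 0.258) and 2.83 to 7.72 in P5 (5.24), a difference of 3.32 ± 0.34. Its F3 difference was 3.45, which also passed (FDR 0.0260), while that of MLT2B3 was 2.99 and missed (FDR 0.0939). MER34A and MER21B in 1 intron of Asap1 (chr15:64195154-64195237 and chr15:64198892-64198982) both averaged 46.3 CPM in P5, against 83.0 and 82.9 in P4, and both changed by -0.83 ± 0.09. Being nearly identical in every library, they count as 1 measurement.

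The highest copies of each name group, over all loci or outside exons, were lower in F1 P5 than in P4, other than in Moap1. All of them lie in genes, and the values are those under the deposited scaling. The log2 differences were -0.44 for LTR41 in Camta1 (FDR 0.00327), -0.38 for MLT2B2 in Cox6c (0.00696), -0.59 for MLT2B1 in Rab10 (2.33e-05), -0.61 for MER21-int in Fkbp6 (0.000105), -0.64 for MamGypLTR1d in Cpne5 (0.000107) and -0.70 for MER34B-int in Ywhaz (4.31e-08). The MamGyp-int copies in Pnma2 (-0.53, FDR 0.00103), Zcchc12 (-0.53, 0.00148) and Pnma5 (-0.46, 0.000769) fell in P5 too, and that in Moap1 gave 0.01 (0.958).

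Species totals differed in F1 at 114 of 191 member species (59.7%), 35 higher and 79 lower, against 63.9% of all 664 species. Of all species 152 were higher and 272 lower, so lower calls outnumbered higher ones there too. MER21B was lower by -0.27 (FDR 1.98e-06), MER68 by -0.20 (1.31e-06), MER21C by -0.16 (0.000416) and LTR48 by -0.27 (0.000393). MamGyp-int (-0.39, FDR 3.44e-05) and MamGypLTR3 (-0.36, 0.0022) were also lower, and MamGypLTR1b higher (0.29, 0.00127). LTR33 (-0.08, 0.0339), LTR67B (-0.11, 0.0480) and MLT2D (-0.07, 0.0317) passed narrowly with small differences, and MLT2B2 (-0.13, 0.0527) and MLT2B4 (0.03, 0.266) did not pass. By group, 18 LTR species were higher and 44 lower, 0 MLT2 species higher and 5 lower, 12 MER species higher and 28 lower, and 5 MamGyp species higher and 2 lower. With the same total per library 101 member species passed, 71 higher and 30 lower, against 64.9% of all species, so these directions also turned with the scaling. As shares of the LTR-class total the P5 to P4 log2 ratios were 0.07 for LTR33, 0.05 for LTR67B, 0.09 for MLT2D and 0.02 for MLT2B2, all above 0, and -0.12 for MER21B, -0.05 for MER68, -0.01 for MER21C, -0.11 for LTR48, -0.23 for MamGyp-int and -0.20 for MamGypLTR3.

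In F3, over 9 libraries of each population, 21 of 4910 member loci passed (0.428%), 20 higher and 1 lower in P5, against 0.996% of all loci, 0.985% higher and 0.0112% lower. The count was 35 with the same total per library (1.4% of all loci) and 52 with median-ratio scaling (1.7% of all loci). With both the test and the scaling changed it was larger still, as on recovered reads edgeR's quasi-likelihood test called 195 (3.97% of members, 6.56% of all loci), DESeq2 266 (5.42% and 7.66%) and edgeR's likelihood ratio test 316 (6.44% and 9.25%), of which 194, 265 and 304 were higher in P5. Outside genes 9 of 404 member loci were higher, or 2.23%, against 4.41% of all loci there. LTR16A on chromosome 1, inside the RefSeq gene Gm32700 and 8570 bases from Tex44, was the F3 call with no overlap, 1 of 2 members tested whose ranges did not overlap, against 0.116% of all loci tested. In F3 P5 the DMSO libraries stood at 35.5, 34.3, 25.3 and 13.4 CPM and the TBT libraries at 93.8, 25.04, 11.6, 50.5 and 30.2, whereas 7 of the 9 F3 P4 libraries were at 0 and the other two at 2.16 and 1.86. The log2 difference was 6.18 ± 0.82 (FDR 0.000113). In F1 it was 3.198 ± 0.41 (FDR 2.18e-07), from 3.92 to 14.4 CPM in P5 and 0 to 3.203 in P4, and no P6 library exceeded 1.58. With the F3 TBT libraries alone the difference was 5.74 and missed the threshold (FDR 0.398). Median marker sums in F3 P4 and P5 were 11044 and 7253 CPM for germ cell genes, 11.7 and 54.6 for Sertoli, 8.96 and 8.84 for Leydig, 22.9 and 17.3 for stromal, 52.8 and 112 for endothelial and 8.15 and 10.8 for blood cell genes, with overlapping ranges for every list, and their part in the F3 differences was not tested.

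Of the 21 F3 calls, 9 lay outside GENCODE genes, 10 in introns and 2 in exons. Among them were 2 neighbouring MER92-int copies in Nrg1, a growth factor gene, MER21C in Chd9 and MamGypLTR3 in Hs6st3, most of them with no read in most P4 libraries. Of the 21, 9 were tested in F1 too, and all 9 passed there in the same direction, 8 higher in P5, as did 471 of 492 (95.7%) among the F3 calls over all loci. The 1 lower in P5 was MER34B-int in Ywhaz (chr15:36771942-36772063), at -0.97 in F3 and -0.67 in F1. The F3 count rested on single libraries. It was 12, 11, 7 and 9 without P4 DMSO library 1, 2, 3 or 4, 13 and 10 without P4 TBT library 6 or 7, 13 without P5 DMSO library 1, 9, 9 and 5 without P5 TBT library 6, 7 or 9, and 103 without P5 TBT library 5 (3.02% of all loci). In the 10 fits with 13 or fewer, 0.0986% to 0.275% of members and 0.395% to 0.728% of all loci passed. Without libraries 1, 2, 5 and 9 of both populations it was 116, 107 higher and 9 lower (2.51% of all loci). Of 190 species totals in F3 only MER34B-int passed (-0.90, FDR 0.0472), against 2.72% of all species, and it is the species with the uncertain copies. No member species passed when any 1 of 14 of the 18 libraries was left out, and 11 of 190 passed, 8 higher and 3 lower, with the same total per library, against 18.3% of all species.

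TBT and DMSO were compared within each population. No member locus passed in F1 P4 (5023 tested, 314 with an unadjusted p under 0.05), F1 P5 (6512 and 348), F1 P6 (4797 and 193), F3 P4 (4549 and 61) or F3 P5 (5187 and 25), and 1 of 5802 passed in F3 P6 (442). Among all LTR-class loci the shares called in the same order were 0%, 0.0106%, 0.00341%, 0%, 0% and 0.0343%. On the recovered reads, edgeR's quasi-likelihood test called 0 members in the first 5 of these and 4 in F3 P6, DESeq2 called 2 in F1 P5, 7 in F3 P6 and 0 in the others, and edgeR's likelihood ratio test called 5, 10, 0, 1, 109 and 13 in this order. Of all loci, quasi-likelihood called 0%, 0.00327%, 0.00341%, 0%, 0% and 0.0582%, DESeq2 0.0164%, 0.114%, 0.0125%, 0.0139%, 0% and 0.0963%, and the likelihood ratio test 0.0971%, 0.319%, 0.0488%, 0.00463%, 3.03% and 0.32%. The 109 members in F3 P5 were thus 2.10% of those tested, below the share of all loci. No member species total passed in any of the 6 populations, and 0% of all species did. The difference of the TBT effect between P5 and P4 passed at no member locus in either generation (200 and 67 with an unadjusted p under 0.05), and at 0.000986% and 0% of all loci.

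Group totals in CPM overlapped between the exposures. In F1 the log2 ratio of TBT to DMSO lay between 0.01 and 0.07 for all 4 groups in all 3 populations, but with the same total per library 10 of these 12 ratios were below 0 and the 12 lay between -0.03 and 0.02. In F3 P6 the ratio lay between -0.01 and 0.02. In F3 P4 it was -0.31 for LTR, -0.21 for MLT2, -0.22 for MER and -0.32 for MamGyp, and in F3 P5 0.13, 0.07, 0.17 and 0.27, where the SD between libraries reached 0.81 for LTR and 0.97 for MamGyp. These values moved with single libraries. Leaving out 1 library in F3 P4 gave -0.39 to -0.17 for LTR, -0.28 to -0.13 for MLT2, -0.29 to -0.09 for MER and -0.51 to -0.07 for MamGyp, each nearest 0 without TBT library 5. Without both TBT libraries 5 and 9 they were -0.08, -0.11, -0.01 and 0.16. In F3 P5 leaving out 1 library gave -0.03 to 0.38 for LTR, -0.10 to 0.32 for MLT2, 0.0003 to 0.42 for MER and 0.10 to 0.54 for MamGyp, each highest without TBT library 5, and LTR and MLT2 were below 0 without DMSO library 2 or TBT library 8. In CPM, TBT and DMSO libraries overlapped in all 24 of these comparisons. In F3 P4 3 of the 4 signs also turned with the same total per library, at 0.06 for LTR, 0.22 for MLT2 and 0.16 for MER, and MamGyp was at -0.13. Without TBT libraries 5 and 9, left out after their values were seen, these were -0.02, -0.05, 0.04 and 0.19. As shares of the LTR-class signal, MER in F3 P4 was the 1 case of 24 with no overlap, at 2.55% to 2.61% in DMSO libraries, 3.23% and 3.22% in TBT libraries 5 and 9 and 2.63% to 2.67% in the other 3 TBT libraries. MLT2 likewise took 0.936% and 0.875% in libraries 5 and 9, the 2 with the fewest member loci detected in F3 P4, and 0.584% to 0.598% in the other 3. In F3 P4 the median log2 ratio over member loci was -0.70 and over all loci -0.69, so it was shared with the rest of the table. Outside genes alone, the F1 P6 log2 ratio was 1.83 for LTR, 2.58 for MLT2, 0.81 for MER and 1.54 for MamGyp, and it was 0.38, 0.68, 0.26 and 0.28 without TBT libraries 7 and 8, left out after their values were seen. For LTR these 2 libraries held 1062 and 1085 CPM outside genes, the other 5 TBT libraries 67.2 to 217 and the DMSO libraries 77.2 to 161. In F1 P5, DMSO libraries had reads on 1310 to 2066 member loci outside genes and TBT libraries on 2053 to 4024, and the median log2 ratio over the 319 members tested there was 0.23, against 0.37 for all 10043 loci outside genes, with no member called.

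The 1 call was MamGypLTR1b in an intron of Heg1 (chr16:33748733-33748808), a gene for a membrane receptor of endothelium and heart. In F3 P6 the TBT libraries stood at 4.96, 4.92, 4.37, 5.38 and 5.12 CPM and the DMSO libraries at 1.39, 2.03, 1.24 and 1.38. The groups did not overlap, the log2 difference was 1.61 ± 0.27 (FDR 0.0211), and it rested on 149 TBT and 28 DMSO reads. Without any 1 of the TBT libraries the FDR was 0.064 to 0.110. In F1 P6 the TBT libraries ran from 0.385 to 5.77 CPM and the DMSO libraries from 0.578 to 4.16, with a log2 difference of 0.41 (FDR 0.999). As 2 LTR-class loci within 10000 bases had reads within 5% of it, its level cannot be told apart from theirs.

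The members with the lowest p among those whose groups did not overlap missed the threshold of the limma test elsewhere. In F1 P4 this was MLT2B1 in an intron of Kcnk1, a potassium channel gene (chr8:126018569-126018796), at 1.45 ± 0.511 CPM in TBT (n = 7) and 3.83 ± 1.04 in DMSO (n = 5), a log2 difference of -1.29 ± 0.34 (FDR 0.582 by limma). In F1 P5 it was MLT2C2 outside genes (chr18:5466713-5466932), at 1.65 to 5.87 CPM in TBT and 0 to 1.63 in DMSO, with 2.11 ± 0.51 (FDR 0.235), and it passed with no filter (FDR 0.00338) and with edgeR's likelihood ratio test (FDR 0.0371). In F1 P6 it was MER89 (chr9:44603420-44603719), inside the RefSeq bounds of the RNA helicase gene Ddx6, at 0.814 to 2.63 CPM in TBT and 3.47 to 5.404 in DMSO, with -1.27 (FDR 0.999). In F3 P4, MLT2B1 on chromosome 1 was at 0 in all 4 DMSO libraries and at 92.8, 1.33, 4.22, 0.932 and 9.51 CPM in TBT (FDR 0.870), so 1 library made most of its mean, and it passed with the likelihood ratio test (FDR 0.0186). In F3 P5, MER74B in an intron of the pseudogene Cyp2c52-ps (chr19:38980299-38980789) averaged 3.05 CPM in TBT and 0 in DMSO (FDR 1.00), and it passed with the likelihood ratio test (FDR 0.0449).

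The Pnma5 copy of MamGyp-int, named after its values were seen, had the lowest unadjusted p of any MamGyp copy in F1 P4. Its DMSO libraries stood at 31.2, 38.4, 37.4, 31.3 and 45.5 CPM and its TBT libraries ran from 40.5 to 75.5 (log2 0.66 ± 0.14, FDR 0.582). In F1 P5 the DMSO libraries stood at 28.2, 25.9, 29.6 and 28.8 CPM and the TBT libraries ran from 30.9 to 49.7 (0.47 ± 0.16, FDR 0.487). The ranges overlapped in P4 and not in P5, and neither difference passed. In F3 P4 the log2 difference was -2.24 (FDR 0.870), with 2 TBT libraries at 0.

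Methylated DNA at member loci was compared in P6, with counts in windows of 100 bases tested by edgeR. Of 154773 windows in F1 and 164382 in F3, 970 and 1042 overlapped any of the 54401 member loci, so most member loci had no window. In F1, 179 of the 970 windows at members had enough counts to test and none passed (6 with an unadjusted p under 0.05, lowest FDR 0.937), against 0.0318% called of all windows. In TBT 93 of the 179 were higher, against 17346 of 34559 of all windows tested. In F3, 269 of 1042 were tested and none passed (16 with an unadjusted p under 0.05, lowest FDR 0.928), nor did any other window (0%). Here 118 of the 269 were higher in TBT, against 24285 of 47563 of all windows tested. Member windows held 5750 to 5904 CPM of the window counts in F1 TBT libraries and 5628 to 5910 in F1 DMSO libraries, and 5512 to 6018 and 5756 to 5997 in F3, so the exposures overlapped. The windows at members held 0.672 CpG on average in F1 and 0.685 in F3, against 0.810 and 0.805 in all windows, and those tested 1.44 and 1.36. The tested windows lay at 82 LTR, 41 MLT2, 52 MER and 4 MamGyp places in F1 and at 121, 53, 88 and 7 in F3. Their median count per library was 15.7 in F1 and 14.5 in F3.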

How the data were processed

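RNA of sorted cells was amplified from poly(A) ends with SMART-seq, so old repeats inside longer transcripts are counted with them. Per the labels and the study's methods, the authors trimmed reads with Trim Galore, aligned them to mm10 with STAR and counted them at RepeatMasker LTR loci with a modified ERVmap (versions not given in the sources used here). The deposited values are a signal in CPM after TMM scaling by the authors with edgeR, separately for germline and somatic cells of each generation. Of 10424595 values above 0, 100% were whole multiples of their library's smallest value (tolerance 0.01), which gave the reads. The authors also deposited raw MBD counts in windows of 100 bases, with a CpG number per window.

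Loci with a mean of at least 5 reads' worth of CPM were tested with limma 3.58.1 (trended variance) on log2(CPM + the worth of 1 read), so fold changes of low loci are understated, with Benjamini-Hochberg FDR under 0.05 over all loci tested. P5 and P4 were compared as the mean of their DMSO and TBT differences. Species totals were fitted alike, and MBD windows with edgeR 4.0.16 (quasi-likelihood). Count tests on recovered reads (edgeR, DESeq2 1.42.0), other pseudocounts, filters, scalings and left-out libraries were alternatives. The fits were tested on simulated data. Group totals are described with no p. Positions come from GENCODE vM21 and RefSeq on GRCm38, with sequences read from that genome by bedtools coordinates converted to count from 1. Named species were the 3 with the highest totals of each group, and named loci the highest of each group and those of largest change among non-overlapping calls (or of lowest p where none passed), with others said to be chosen after their values were seen. The members and lists were chosen with earlier results of these data known. The labels do not say that libraries of a group came from separate litters, and the F1 germline libraries share leading numbers, so p-values measure the spread between these libraries, which may be technical.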

Additional observations from a re-analysis of the deposited data

Results flagged for a closer look

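In 5 of 58 groups of 4 to 10 libraries, the highest or lowest library lay apart from the rest of its group by Dixon's criterion, and chance flags about 1 in 20 groups. The LTR total of F3 P5 DMSO library 2 was 11633 CPM, with the next at 18547. The LTR total of F3 P6 TBT library 9 was 23108 CPM, above the next at 22876, a small gap in a tight group. The MLT2 total of F3 P4 TBT library 5 was 5283 CPM, with the next at 7056. The MamGyp total of F3 P5 TBT library 5 was 129 CPM, with the next at 775, in the library with the fewest reads (246520). MLT2B1 at chr1:149549143-149549331 stood at 92.8 CPM in F3 P4 TBT library 5, with the next at 9.51.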

How the results depend on the processing

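Counts of called member loci between TBT and DMSO stayed at or near 0 under most alternatives. With edgeR's likelihood ratio test on recovered reads they were 5 in F1 P4, 10 in F1 P5, 1 and 109 in the F3 germline cells P4 and P5, and 13 in F3 somatic cells. With no filter they were 20 in F1 P5, 1 in F1 P6 and 6 in F3 P6, and with DESeq2 2 in F1 P5 and 7 in F3 P6. F3 P6 also gave 4 with a pseudocount of 4 units, 4 with quasi-likelihood and 0 when fitted on loci outside genes. Leaving out 1 library gave 0 to 1 in F1 P5 and 0 to 7 in F3 P6, and 0 to 1 for species totals in F3 P6. Over these and the counts below that moved, 66 in all, the share of members called was below that of all loci or species in 56, equal in 1 and above it in 9. With no filter it was 0.0761%, 0.00543% and 0.0484% of members against 0.202%, 0.00585% and 0.0367% of all loci.

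For P5 against P4, counts are given with the percent of members and of all loci called. In F1 the count was 1324 with a filter of 20 units (59.0% and 57.5%), 52 with loci outside genes (32.9% and 40.4%) and 643 with DMSO libraries alone (11.8% and 12.4%). Leaving out 1 library gave 1796 to 2059 (species totals 102 to 119). In F3 it was 7 with no filter (0.0298% and 0.0949%), 1 with a filter of 20 units (0.0580% and 0.583%), 35 with the same total per library (0.703% and 1.40%) and 52 with median-ratio scaling (1.01% and 1.70%). It was 316 with the likelihood ratio test (6.44% and 9.25%), 195 with quasi-likelihood (3.97% and 6.56%) and 266 with DESeq2 (5.42% and 7.66%). It was 37 outside genes (9.16% and 13.4%), 4 with DMSO alone (0.0762% and 0.145%), 0 with TBT alone (0% and 0%) and 116 without libraries 1, 2, 5 and 9 (2.07% and 2.51%). Leaving out 1 library gave 5 to 103. F3 species totals gave 11 with the same total (5.79% of members, 18.3% of all species), 64 outside genes (44.1% and 58.9%), 13 without those libraries (6.77% and 10.4%) and 0 to 3 leaving out 1. Leaving out those libraries was chosen after seeing the data, and the causes of these changes were not tested beyond the fewer loci or libraries entered.

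P4 and P5 libraries share numbers in the labels, which do not say that they share an animal. Deviations of same-numbered libraries correlated at -0.012 to 0.499 in F1 (median 0.272, above 0.1 in 7 of 11) and -0.20 to 0.58 in F3 (median 0.380, above 0.1 in 7 of 9), so not every pair did and the numbers were not taken as pairs. Of P4 and P5 libraries, 5 and 6 of 11 in F1 and 2 and 2 of 9 in F3 correlated best with their own number. With the replicate block the F1 count was 2286, 973 higher and 1313 lower (40.9% of members, 42.7% of all loci), the F3 count was 61, 59 higher and 2 lower (1.24% and 2.20%), species totals gave 121 (63.4% and 71.4% of all species) and 2 (1.05% and 4.98%), and the difference of the TBT effect 0 in both.

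Log2 ratios of TBT to DMSO group totals moved with the same total per library to -0.0234 for LTR, -0.0267 for MLT2, -0.0069 for MER and -0.0118 for MamGyp in F1 P4, -0.0196 for MLT2 in F1 P6, and 0.056, 0.2224 and 0.161 for LTR, MLT2 and MER in F3 P4. Outside genes alone they were -0.0782 (LTR), -0.0283 (MER) and -0.008 (MamGyp) in F1 P4, 0.2532 (LTR) and 0.1607 (MLT2) in F1 P5, 1.8275, 2.5788, 0.8086 and 1.54 in F1 P6, 0.3966 (MER) in F3 P4, and -0.0469, -0.0251, -0.0617 and 0.0875 in F3 P6, where MamGyp without exons was 0.0397. Alternatives were followed for the loci named by the contrasts, and none of those that had passed a test changed sign. These were LTR16A on chromosome 1, LTR37B in Col24a1, MLT2B3 in Galntl6, MER34A and MER21B in Asap1, and MamGypLTR1b in Heg1. Other named copies that passed were not followed there. What read depth limits in the F3 germline was not tested.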
